A study of Bos taurus with 18 samples.

Results

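Genes for 8 protease inhibitors were followed along the bovine epididymis, the coiled duct in which sperm from the testis mature and are stored. They are the cystatins CST8, CST11 and CST3, the WAP-domain inhibitors WFDC8, WFDC2, SPINLW1 (also called EPPIN) and PI3, and the Kazal-type inhibitor SPINK2B. The members were listed by name as inhibitors of these families. Each is described by the probe set annotated to that symbol alone, and where a gene had several, by the brightest over all 18 arrays. All 8 had such a probe set, out of 18010 genes named by single-gene probe sets, and 9 probe sets carried their names, since PI3 had 2.

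The arrays came from 3 segments of the epididymis, the caput near the testis, the corpus in the middle and the cauda where sperm are stored, of 6 Holstein bulls aged 51 to 71 months. Of these, 3 had high and 3 medium-low fertility, by a non-return index, the share of inseminated cows not presented again by 56 days, from 282 to 486 inseminations per bull. The 6 groups, each segment in each fertility group, hold 3 arrays each, no bull received a treatment named in the labels, and every sample was a piece of whole tissue that mixes duct epithelium with muscle, vessels and luminal content. Replicate numbers run from 1 to 3 in every group, and the labels do not say that a number marks a bull.

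Cystatins block papain-like cysteine proteases such as the cathepsins, and the type 2 cystatins that include the members are secreted. WAP domains (the "WFDC" of the gene names, a small fold held by disulfide bonds) and Kazal domains mostly block serine proteases such as trypsin, acrosin and elastase. In several mammals the duct epithelium secretes members of all these families by segment, and some coat maturing sperm, which carry proteases of their own in the acrosome. EPPIN has a WAP and a Kunitz inhibitor domain and in humans binds semenogelin on sperm, together with lactotransferrin and clusterin.

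Values are log2 signals, so a difference of 1 is a 2-fold difference, and they compare arrays for the same probe set, not genes with each other. Differences are from limma over all 26773 probe sets, with standard errors (SE) from that model, standard deviations (SD) between arrays, p-values adjusted by the Benjamini-Hochberg method and a threshold of 0.05. No detection call was used, so signals near the bottom of the scale may be background. Where 1 tissue piece has less signal than another, fewer cells of a type and less RNA per cell cannot be told apart.

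The labelled segments were set beside segment genes taken from earlier results of the same arrays, which describes the arrays and is no independent check of the labels. The mean log2 signal of 5 caput genes (GPX5, LCN6, RNASE10, OVCH2, PDZK1) was 11.94 to 13.02 in the caput arrays and 6.39 to 8.52 in all others, and that of 5 cauda genes (S100G, GPR50, NRK, KCNIP3, SCNN1A) was 10.12 to 11.31 in cauda arrays and 5.81 to 7.29 elsewhere. Medium-low caput replicates 1 and 2 stood apart within caput in single genes of these lists. S100G read 11.86 and 11.95 there against 6.22 to 8.13 on the remaining 4 caput arrays, and OVCH2 at least 12.72 against 9.18 to 10.82. GPX5, LCN6 and RNASE10 of the caput list were also above those 4 arrays. PDZK1 of that list was below them, at 10.01 and 10.91 against 11.71 to 12.25. QPCT, a gene of the corpus list, read 4.17 and 5.30 against 11.29 to 12.09, while ENTPD3 of the same list was higher, at 8.12 and 7.73 against 5.75 to 6.32. The cauda genes GPR50, at 6.01 and 5.84, and KCNIP3, at 6.14 and 6.05, were at the caput level on both arrays. SCNN1A of that list was above the remaining caput arrays, at 6.98 and 7.53 against 6.45 to 6.82. NRK read 5.46 and 4.89 against 4.94 to 5.20. On medium-low cauda replicate 3 GPR50 read 8.32 against 12.39 to 12.65 on the other cauda arrays and NRK 8.49 against 10.45 to 11.77, while S100G, at 11.92, and KCNIP3, at 11.17, were the highest of the segment. All 9 measured genes of a smooth muscle list of 10 were lowest there, with a mean of 11.45 against 11.98 to 12.40. That list was 10.39 to 11.05 in caput and corpus arrays and thus higher in every cauda array, and its part in the cauda differences given here was not tested. Member differences that rest on these arrays are given with and without them, and what part their composition plays was not tested. Without caput replicates 1 and 2 the medium-low caput group is 1 array, replicate 3, and p-values of its comparisons assume that this lone array varies like those of the other groups.

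Averaged over the fertility groups, SPINLW1, WFDC8, SPINK2B and CST11 were lower in cauda than in caput, PI3 was higher in corpus than in caput, and CST3, CST8 and WFDC2 passed the threshold in no averaged segment comparison. Of the 8 genes, 3 passed from caput to corpus, 1 up and 2 down, beside 33.2% of all probe sets, 19.5% up and 13.7% down. From caput to cauda 4 passed and all were lower, where 32.2% of all probe sets passed and 15.1% were lower. From corpus to cauda 3 passed, again lower, beside 24.3% passed and 12.3% lower over the table. The median difference of the 8 genes was 0.10, -1.59 and -1.34 in the order of these comparisons, and the median over all probe sets 0.06, 0.03 and -0.04. Arrays of the compared segments did not overlap for 1, 2 and 4 of the 8 genes, and for 15.1%, 15.6% and 14.3% of all probe sets.

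**Figure D1:**
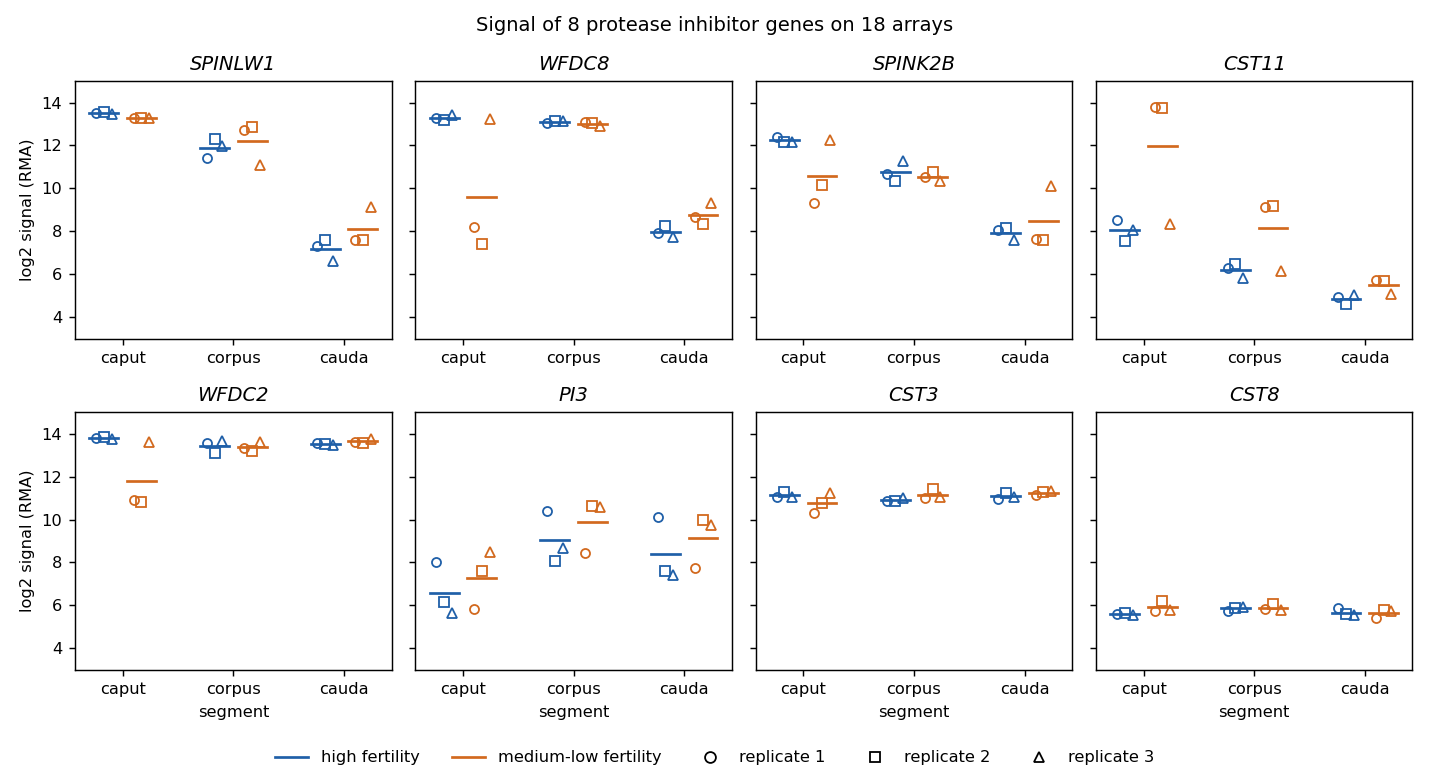
Log2 signal (vertical axis) of the 8 inhibitor genes in caput, corpus and cauda (horizontal axis), with 1 point per array, colour for the fertility group, symbol for the replicate number and a bar at each group mean. SPINLW1, WFDC8 and SPINK2B are lowest in cauda, PI3 is lowest in caput on average, and medium-low caput replicates 1 and 2 lie far from the other 4 caput arrays for CST11, WFDC8, WFDC2 and SPINK2B.

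SPINLW1, the sperm-coating inhibitor with WAP and Kunitz domains, had the largest averaged difference between caput and cauda of the 8 genes, although inside medium-low fertility that of CST11 was larger. In high fertility caput its log2 signal was 13.50, 13.54 and 13.47, in corpus 11.41, 12.29 and 11.98, and in cauda 7.31, 7.61 and 6.62. Medium-low fertility gave 13.27, 13.28 and 13.28 in caput, 12.72, 12.85 and 11.08 in corpus and 7.59, 7.62 and 9.13 in cauda. No caput array overlapped a corpus array and no corpus array a cauda array. The cauda mean was 5.75 below the caput mean on the log2 scale (SE 0.318, 53.7-fold, limma adjusted p = 6.06e-09). Most of this gradient lay in its last step: corpus to cauda gave -4.41 (SE 0.318, limma adjusted p = 1.65e-07) and caput to corpus -1.34 (SE 0.318, limma adjusted p = 0.00488). Leaving out medium-low caput replicates 1 and 2 gave -5.75, -4.41 and -1.34 (limma adjusted p = 3.43e-07, 7.31e-07 and 0.0259). On those arrays SPINLW1 was at 13.27 and 13.28, the level of its segment.

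WFDC8, a relative of SPINLW1 with WAP and Kunitz domains and its direct neighbour on the chromosome, held its level from caput to corpus in high fertility and dropped only in cauda. The high fertility arrays read 13.26, 13.20 and 13.40 in caput, 13.04, 13.12 and 13.15 in corpus and 7.92, 8.23 and 7.75 in cauda. In medium-low fertility caput replicates 1 and 2 read 8.22 and 7.40, the level of cauda, while replicate 3 read 13.23. The medium-low corpus arrays were at 13.08, 13.05 and 12.92 and the cauda arrays at 8.69, 8.32 and 9.31. Inside high fertility the cauda was 5.32 below the caput (SE 0.963, limma adjusted p = 0.000918) and 5.13 below the corpus (SE 0.963, limma adjusted p = 0.00211), while the caput to corpus difference was -0.19 with a 95% interval from -2.24 to 1.87. Averaged over the fertility groups the cauda was 4.69 below the corpus (SE 0.681, limma adjusted p = 0.000131). Against caput it was 3.08 lower (limma adjusted p = 0.00256), and 4.89 lower without the 2 caput arrays that stand apart (limma adjusted p = 3.96e-10). Those arrays also set the 3.40 rise from caput to corpus inside medium-low fertility (limma adjusted p = 0.0241), which was -0.21 without them (limma adjusted p = 0.672, 1 caput array left).

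SPINK2B, a small Kazal inhibitor whose relative SPINK2 blocks acrosin in humans and mice, fell along the duct from high levels in caput. High fertility arrays gave 12.40, 12.17 and 12.14 in caput, 10.66, 10.36 and 11.28 in corpus and 8.05, 8.16 and 7.60 in cauda. Medium-low fertility arrays gave 9.30, 10.17 and 12.24 in caput, 10.52, 10.78 and 10.32 in corpus and 7.64, 7.61 and 10.12 in cauda. The 3 segments did not overlap inside high fertility, whereas in medium-low fertility caput replicates 1 and 2 were no higher than corpus and cauda replicate 3 lay just below the corpus arrays. The averaged cauda mean was 3.21 below the caput mean (SE 0.464, 9.23-fold, limma adjusted p = 7.72e-05) and 2.46 below the corpus mean (SE 0.464, limma adjusted p = 0.00116). Without medium-low caput replicates 1 and 2 the first value was -4.04 (limma adjusted p = 1.27e-05), and the caput to corpus difference, -0.75 with all arrays (limma adjusted p = 0.231), was -1.59 (limma adjusted p = 0.0145). Without medium-low cauda replicate 3 the cauda to caput difference was -3.62 (limma adjusted p = 6.37e-06).

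CST11, an epididymal cystatin with antibacterial activity reported for the human protein, was highest in caput and lowest in cauda. It read 8.53, 7.55 and 8.05 in high fertility caput, 6.28, 6.47 and 5.83 in corpus and 4.93, 4.61 and 5.04 in cauda. Medium-low fertility arrays read 13.81, 13.75 and 8.36 in caput, 9.15, 9.17 and 6.15 in corpus and 5.73, 5.70 and 5.10 in cauda. Replicates 1 and 2 of medium-low fertility were therefore above replicate 3 in all 3 segments. The caput list was also higher in medium-low corpus replicates 1 and 2, at 7.61 and 8.52, than in the remaining corpus arrays, at 6.40 to 7.08, with GPX5 at 9.97 and 10.84 but PDZK1 at 5.77 and 6.60, and its part in the corpus values was not tested. The cauda arrays lay below all corpus arrays and these overlapped caput, and the averaged cauda mean was 4.82 below the caput mean (SE 0.776, 28.3-fold, limma adjusted p = 0.0002). Without medium-low caput replicates 1 and 2 this difference was -3.02 (limma adjusted p = 0.000659), and that from caput to corpus changed from -2.83 (limma adjusted p = 0.0117) to -1.03 (limma adjusted p = 0.153). The model shares 1 spread over all groups, so the SE inside high fertility still includes these arrays. The SD of CST11 was 3.13 in medium-low caput, 0.492 in high caput and 0.224 in high cauda. Inside high fertility, whose means hold neither array, caput and cauda arrays did not overlap. There CST11 was 3.19 lower in cauda than in caput (SE 1.10, limma adjusted p = 0.0489). That call sat at the threshold, and leaving out 1 array at a time ended it for 14 of the 18 arrays, with limma adjusted p from 0.0522 to 0.128 (the 4 exceptions were the medium-low caput arrays and medium-low corpus replicate 3). From corpus to cauda the difference was -1.99 (limma adjusted p = 0.0764), which passed with the replicate number as a block (limma adjusted p = 0.0129).

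PI3, the elastase inhibitor elafin, rose from caput to corpus, and its replicates lay far apart in every group, with an SD of 1.20 to 1.51 between arrays. In high fertility it read 8.01, 6.14 and 5.63 in caput, 10.40, 8.09 and 8.66 in corpus and 10.13, 7.61 and 7.42 in cauda. In medium-low fertility it read 5.81, 7.61 and 8.46 in caput, 8.43, 10.63 and 10.59 in corpus and 7.75, 9.98 and 9.75 in cauda. The segments overlapped, with caput between 5.63 and 8.46, corpus between 8.09 and 10.63 and cauda between 7.42 and 10.13. Replicate 1 was the highest array of each high fertility group and the lowest of each medium-low group. The averaged corpus mean was 2.52 above the caput mean (SE 0.679, 5.75-fold, limma adjusted p = 0.0106), and 1.94 above it without medium-low caput replicates 1 and 2 (limma adjusted p = 0.0829). Lists of basal cell and endothelial genes were also higher in all corpus than in all caput arrays, at 8.19 to 8.51 against 7.32 to 7.91 and at 8.58 to 8.94 against 7.91 to 8.20, and their part in the PI3 difference was not tested. In cauda they were at 7.85 to 8.19 and 8.65 to 9.19. For PI3 the cauda mean was 1.83 above the caput mean (SE 0.679, limma adjusted p = 0.0519) and 0.70 below the corpus mean (SE 0.679, limma adjusted p = 0.506).

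Within arrays of the same fertility group and replicate number the course of PI3 was the same 6 times out of 6. Corpus exceeded caput by 1.95 to 3.04, cauda exceeded caput by 1.29 to 2.37, and cauda was below corpus by 0.27 to 1.25. For corpus with caput the numbers were not taken as pairing on average or in medium-low fertility. Deviations of medium-low corpus and caput number 3 correlated at 0.0706 over all probe sets, so the corpus to caput course may join unmatched arrays. With the replicate number as a block, the cauda to caput difference passed (limma adjusted p = 8.09e-06), as did cauda to corpus (limma adjusted p = 0.00807). Inside high fertility the block brought PI3 past the threshold for corpus against caput (2.46, limma adjusted p = 0.0869 without and 4.38e-05 with it) and for cauda against caput (1.79, 0.214 and 0.000206). Inside medium-low fertility it did so for cauda against caput (1.86, 0.200 and 0.000221). A second probe set named PI3, whose gene number is not in the current bovine reference table, lay between 3.36 and 4.27 on all arrays and passed in none of these comparisons.

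**Figure D2:**
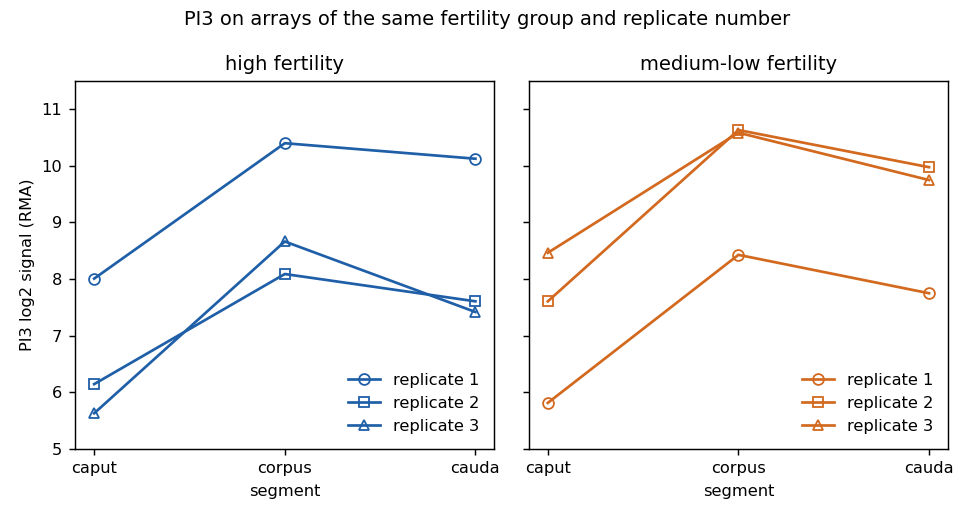
PI3 log2 signal (vertical axis) in caput, corpus and cauda (horizontal axis), with a line joining the 3 arrays that share a fertility group and a replicate number. All 6 lines rise from caput to corpus, by 1.95 to 3.04, and fall by 0.27 to 1.25 from corpus to cauda, while their heights differ by replicate. In medium-low fertility the numbers were not taken as pairing between caput and corpus.

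WFDC2, a secreted 2-WAP-domain protein first described in human epididymis as HE4, was high in every segment. High fertility arrays read 13.79, 13.82 and 13.74 in caput, 13.58, 13.09 and 13.68 in corpus and 13.58, 13.53 and 13.48 in cauda. Of the medium-low arrays, caput replicates 1 and 2 read 10.91 and 10.82 and the other 7 lay between 13.20 and 13.73. So 16 of 18 arrays fell between 13.09 and 13.82, with an SD of 0.204 over those 16. The 2 low arrays set the medium-low differences: cauda was 1.87 above caput (SE 0.492, limma adjusted p = 0.0142) and corpus 1.60 above caput (SE 0.492, limma adjusted p = 0.0359), and without them, with 1 caput array left, these were 0.04 and -0.23 (limma adjusted p = 0.93 and 0.508). Averaged over the fertility groups no segment difference of WFDC2 passed, with 0.63, 0.81 and 0.17 for corpus against caput, cauda against caput and cauda against corpus.

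CST3, cystatin C, a cathepsin inhibitor that most tissues secrete, varied little along the duct. It ranged from 10.31 to 11.43 over the 18 arrays, with means of 10.95 ± 0.363 in caput, 11.03 ± 0.212 in corpus and 11.17 ± 0.146 in cauda (SD, n = 6 each). Its largest averaged difference, cauda minus caput, was 0.21 with a 95% interval from -0.06 to 0.49 (limma adjusted p = 0.23). The 2 lowest values, 10.31 and 10.77, were again medium-low caput replicates 1 and 2. Inside medium-low fertility cauda was 0.48 above caput, which passed only with the replicate number as a block (limma adjusted p = 0.0763 without and 0.0465 with it), and was 0.01 without those arrays (limma adjusted p = 0.976, 1 caput array left).

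CST8, a cystatin known from the mouse as CRES and found there in caput epithelium and in germ cells, gave a low signal in this duct. Its mean over the 18 arrays, 5.76, lies in the lowest 25% of probe set means, which end at 5.86. Segment means were 5.76 ± 0.240 in caput, 5.87 ± 0.107 in corpus and 5.66 ± 0.177 in cauda (SD, n = 6 each), and the largest averaged difference, cauda minus corpus, was -0.22 (SE 0.0968, limma adjusted p = 0.119). Its highest arrays were medium-low caput replicate 2 at 6.20 and medium-low corpus replicate 2 at 6.04. A list of germ cell and sperm genes, 14 of 15 measured, averaged 9.16 and 8.83 on these arrays and 9.07 on medium-low caput replicate 3, where CST8 was at 5.80. On the other 15 arrays that list averaged 6.60 to 8.10, and its part in the CST8 values was not tested.

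**Figure D3:**
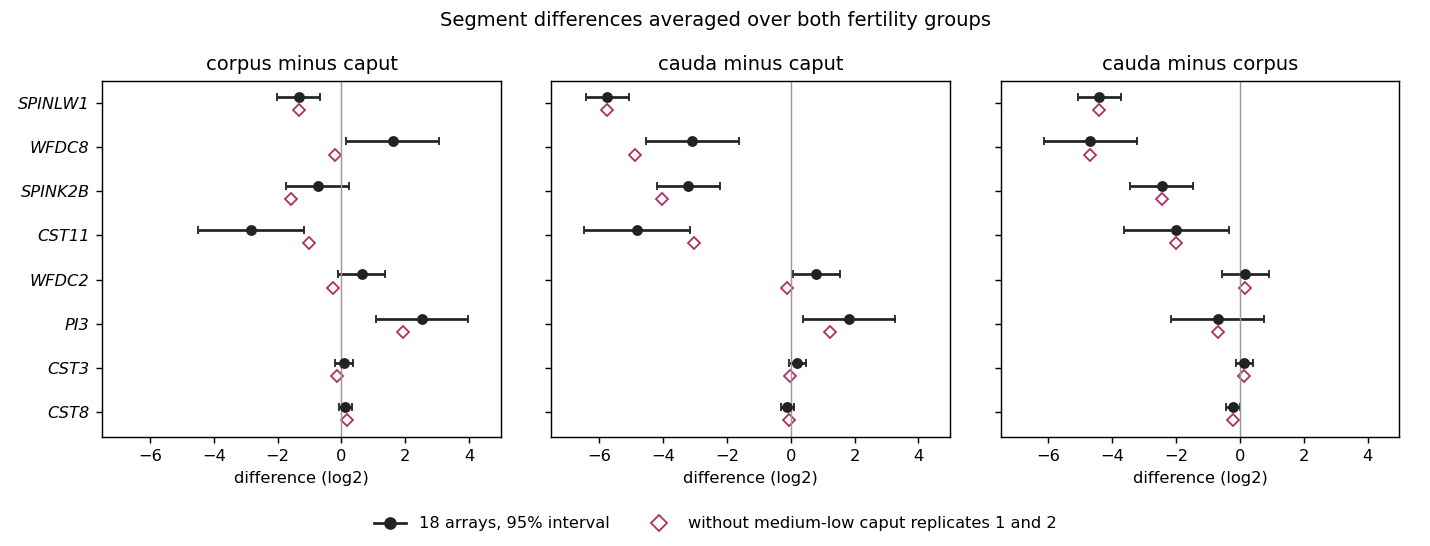
Differences between segments (log2, horizontal axis) for the 8 inhibitor genes, averaged over both fertility groups. Black points with 95% intervals use all 18 arrays, and open diamonds leave out medium-low caput replicates 1 and 2, which moves WFDC8, WFDC2, CST11 and SPINK2B against caput and hardly moves SPINLW1.

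Inside high fertility, whose replicate arrays correlated at 0.986 or more over the table, 4 of 8 genes were lower in cauda than in caput and none higher, beside 22.7% of all probe sets past the threshold and 10.7% lower. They were SPINLW1 (-6.32), WFDC8 (-5.32), SPINK2B (-4.30) and CST11 (-3.19). From corpus to cauda SPINLW1 (-4.71), WFDC8 (-5.13) and SPINK2B (-2.83) were lower, 3 of 8 beside 14.5% past the threshold and 6.99% lower. From caput to corpus only SPINLW1 passed (-1.61, limma adjusted p = 0.0208), 1 of 8 beside 19.6% past the threshold and 9.19% lower. All 8 genes had corpus arrays that did not overlap the caput arrays there, and so had 43.3% of all probe sets. The caput to corpus call of SPINLW1 was lost on leaving out any of 4 arrays, high caput replicates 2 and 3 and high corpus replicates 1 and 3 (limma adjusted p from 0.0531 to 0.0864). Leaving out medium-low caput replicates 1 and 2, which lowers the spread the groups share, added CST11 in that comparison (-1.85, limma adjusted p = 0.0424).

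Inside medium-low fertility 4 of 8 genes passed between caput and cauda, 3 lower and WFDC2 higher, beside 20.5% of all probe sets, 9.13% lower and 11.3% higher. The lower genes were SPINLW1 (-5.17), CST11 (-6.46) and SPINK2B (-2.11). Without the 2 caput arrays that stand apart the caput group is 1 array against 3, and CST11 gave -2.85 (limma adjusted p = 0.0455), SPINK2B -3.79 (limma adjusted p = 0.00365) and SPINLW1 -5.17 (limma adjusted p = 0.000278). With that lone caput array WFDC8 passed too, changing from -0.84 (limma adjusted p = 0.612) to -4.45 (limma adjusted p = 4.29e-07). Between caput and corpus 3 of 8 passed, WFDC8 and WFDC2 up and CST11 down (-3.81), beside 17.7% of all probe sets, 9.58% higher and 8.09% lower. Without those arrays, with 1 caput array against 3 corpus arrays, corpus minus caput was -0.21 for WFDC8, -0.23 for WFDC2 and -0.20 for CST11. Between corpus and cauda SPINLW1 (-4.10) and WFDC8 (-4.24) were lower, 2 of 8 beside 10.1% past the threshold and 4.55% lower. Single arrays also decided some of these calls. SPINK2B lost its caput to cauda call without medium-low caput replicate 2 or 3 or cauda replicate 1 or 2 (limma adjusted p from 0.0535 to 0.137), and WFDC2 without caput replicate 1 or 2 (0.067 to 0.0764). From caput to corpus CST11 lost it without medium-low caput replicate 1 or 2 or corpus replicate 3 (limma adjusted p from 0.106 to 0.12). WFDC8 and WFDC2 lost it there without caput replicate 1 or 2 or any 1 medium-low corpus array (limma adjusted p from 0.0539 to 0.117 and from 0.0677 to 0.162). From corpus to cauda, with the replicate number as a block, CST11 (-2.65, limma adjusted p = 0.154 without and 0.0331 with it) and SPINK2B (-2.08, 0.0579 and 0.0239) passed as well.

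The series was collected to compare bulls of different fertility, and none of the 8 inhibitors passed the threshold between the fertility groups in any segment. In caput 0 of 8 passed beside 0.213% of all probe sets, in corpus 0 of 8 beside 0.00374% and in cauda 0 of 8 beside 0.0112%. At an unadjusted limma p under 0.05, 5 of 8 passed in caput and 0 of 8 in corpus and in cauda, beside 20.8%, 4.41% and 5.81% of all probe sets. Arrays of the fertility groups did not overlap for 3 of 8 genes in caput (CST8, SPINLW1 and WFDC2), 1 in corpus (CST3) and 3 in cauda (CST11, WFDC8 and WFDC2), beside 18.5%, 11.3% and 11.6% of all probe sets. With an unadjusted limma p under 0.05 and a 2-fold difference, 4 passed in caput, where 3.01% of all probe sets did.

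Those 4 were CST11, 3.93 higher in medium-low caput (SE 1.10, limma adjusted p = 0.0721), WFDC8, 3.67 lower (SE 0.963, limma adjusted p = 0.0683), WFDC2, 2.01 lower (SE 0.492, limma adjusted p = 0.0655), and SPINK2B, 1.67 lower (SE 0.656, limma adjusted p = 0.16). All 4 differences rest on replicates 1 and 2: medium-low caput replicate 3 read 8.36 for CST11, 13.23 for WFDC8, 13.60 for WFDC2 and 12.24 for SPINK2B, where the high caput arrays spanned 7.55 to 8.53, 13.20 to 13.40, 13.74 to 13.82 and 12.14 to 12.40. Without replicates 1 and 2, and so between replicate 3 alone and the 3 high caput arrays, the differences were 0.31, -0.06, -0.18 and 0.01 (limma adjusted p = 1.00 for each). With replicate 3 left out instead, CST11, CST3, WFDC8, WFDC2 and SPINK2B passed, 5 of 8, and so did 4702 probe sets against 57 with all arrays.

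SPINLW1 differed by -0.22 in caput (95% interval -1.18 to 0.74), 0.32 in corpus (-0.64 to 1.28) and 0.93 in cauda (-0.02 to 1.89), the last 0.43 without medium-low cauda replicate 3. PI3 differed by 0.70, 0.83 and 0.78, with intervals reaching from -1.35 to 2.88 over the segments. CST11 was 1.96 higher in medium-low corpus, with an interval from -0.38 to 4.30. For none of the 8 genes did the fertility difference vary between segments past the threshold (limma F test, adjusted p from 0.548 to 0.999, 0 of 8 beside 0.00374% of all probe sets). WFDC8 and WFDC2 had an unadjusted p under 0.05 in that F test, 2 of 8 beside 8.79% of all probe sets.

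Ranked by group mean, 4 of 40 steps between neighbouring groups in the order of the levels passed the threshold. The groups were sorted by the same means that the steps compare, and no share over all probe sets is given. This count is therefore a description of the order and no result particular to these genes. The steps of WFDC8, CST11 and WFDC2 are the differences between medium-low caput and corpus. Without medium-low caput replicates 1 and 2, which leaves 1 caput array, corpus minus caput was -0.21, -0.20 and -0.23 for these genes. SPINLW1 ran from high caput over medium-low caput, medium-low corpus and high corpus to medium-low cauda and high cauda, and the step that passed was from high corpus (11.89 ± 0.446) to medium-low cauda (8.11 ± 0.879; SD, n = 3 each). WFDC8 ran from high caput over high corpus, medium-low corpus and medium-low caput to medium-low cauda and high cauda, with a step below medium-low corpus. CST11 ran from medium-low caput over medium-low corpus, high caput and high corpus to medium-low cauda and high cauda, with a step below medium-low caput. The order for WFDC2 was high caput, medium-low cauda, high cauda, high corpus, medium-low corpus and medium-low caput, with a step above the last. SPINK2B went from high caput through high corpus, medium-low caput and medium-low corpus to medium-low cauda and high cauda without a step that passed. All steps were taken without the replicate block, with which the SPINK2B step from medium-low corpus to medium-low cauda passed, as given above. PI3 had medium-low corpus, medium-low cauda, high corpus, high cauda, medium-low caput and high caput in this order. CST3 went from medium-low cauda through medium-low corpus, high caput, high cauda and high corpus to medium-low caput. CST8 went from medium-low caput through medium-low corpus, high corpus, high cauda and medium-low cauda to high caput. For these last 3 genes no step passed.

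Of the 4 inhibitors that fell in cauda, SPINLW1, WFDC8 and SPINK2B, which lies on another chromosome, followed each other across arrays. Pearson's r was 0.88 between SPINLW1 and SPINK2B, 0.83 between WFDC8 and SPINK2B and 0.68 between WFDC8 and SPINLW1 over the 18 arrays. Over the 16 arrays without medium-low caput replicates 1 and 2 these values were 0.95, 0.91 and 0.97. CST11, the fourth, had r of 0.70 with SPINLW1, 0.32 with SPINK2B and -0.01 with WFDC8 over the 18 arrays, and of 0.84, 0.73 and 0.76 over those 16. CST11 and WFDC2 had r of -0.84 over 18 arrays and -0.16 over 16. The 4 inhibitors were named because they fell in cauda on these arrays, so a high r between them in part repeats that difference. All r values are descriptions over arrays that share bulls and segments, and no correlation within groups is given.

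Among all other named genes the closest to SPINLW1 over the 18 arrays were ERO1B, an oxidase that helps form disulfide bonds in the endoplasmic reticulum (r = 0.97), SLC35E2B and TRAM1, a part of the protein translocation machinery. Closest to WFDC8 were QPCT, glutaminyl cyclase (r = 0.98), LOC783225 and KIAA0930, and closest to SPINK2B were the beta-defensin gene DEFB116 (r = 0.98), ZNF185 and MORN1. DEFB116 spanned 8.66 to 10.93 in caput, 9.28 to 9.92 in corpus and 6.74 to 8.47 in cauda. CST11 was closest to the fatty acid transporter SLC27A3 (r = 0.95), PPP2R2B and MCOLN2, which were all high on medium-low caput replicates 1 and 2 (SLC27A3 at 11.23 and 11.11). WFDC2 was closest to the epoxide hydrolase EPHX2 (r = 0.98), PROM1 and TSC22D1, all low on those arrays (PROM1 at 5.85 and 5.95). PI3 was closest to WNT9A (r = 0.87), TNFAIP2 and OR5B148, CST3 to OR9Q6 (r = 0.79), FBRS and RAN, and CST8 to KIF19 (r = 0.88), MGC134105 and MGC133636. Without medium-low caput replicates 1 and 2 the closest genes changed: GPAM led for WFDC8, RNF217 for SPINLW1, ZNF219 for WFDC2, TICRR for CST11, SENP8 for CST3 and OLIG1 for PI3, while DEFB116 for SPINK2B and KIF19 for CST8 remained first.

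On chromosome 13 the members lie in a cystatin cluster and in a WFDC region, by the order of genes in the current reference table, which was looked at after the values were known. The cystatin cluster runs from CSTL1 through CST11, MGC133636, LOC617402, CST8, LOC531692, LOC781567 and LOC505033 to CST3. Of its 9 protein-coding genes 8 were measured, and 3 were lower in cauda than in caput on average: CST11, LOC617402 (-0.59, limma adjusted p = 0.0493) and LOC531692 (-1.42, limma adjusted p = 0.0132). LOC617402 lost the call without medium-low cauda replicate 3 (limma adjusted p = 0.0677). On medium-low caput replicates 2 and 3 LOC617402 read 7.17 and 7.06 and LOC531692 8.34 and 8.27. Replicate 1 read 5.73 and 5.94, and the high caput means were 6.05 and 6.90. The germ cell and sperm list averaged 9.16 and 9.07 on replicates 2 and 3 and 6.82 on replicate 1. The part of that list in these values was not tested. Inside high fertility only CST11 passed. In the WFDC region, from WFDC5 to WFDC3, 27 of 41 protein-coding genes were measured, and 4 were lower and 3 higher in cauda than in caput, averaged and inside high fertility alike. These 7 are 25.9% of the 27, beside 32.2% of all probe sets on average and 22.7% inside high fertility. The cystatin cluster had 37.5% on average and 1 of 8 inside high fertility. Without medium-low cauda replicate 3 the averaged shares were 37% (WFDC region) and 25% (cystatin cluster), beside 31.9% of all probe sets. Both counts include the members that lie there.

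WFDC2, SPINLW1 and WFDC8 follow each other directly there, with high fertility cauda minus caput differences of -0.25, -6.32 and -5.32. WFDC10A, the next measured gene, stayed between 11.84 and 12.72 on all arrays. WFDC11 beyond it, in high fertility, went from 10.05 ± 0.0952 in caput to 8.85 ± 0.123 in cauda (SD, n = 3 each; limma adjusted p = 0.00288), and it read 8.56 and 8.94 on medium-low caput replicates 1 and 2, below the 9.95 to 10.16 of the remaining caput arrays. At the other end of the region PI3 and SLPI, a secreted leukocyte protease inhibitor with WAP domains, were higher in cauda, PI3 by 1.79 without passing and SLPI by 0.64 (limma adjusted p = 0.00189).

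**Figure D4:**
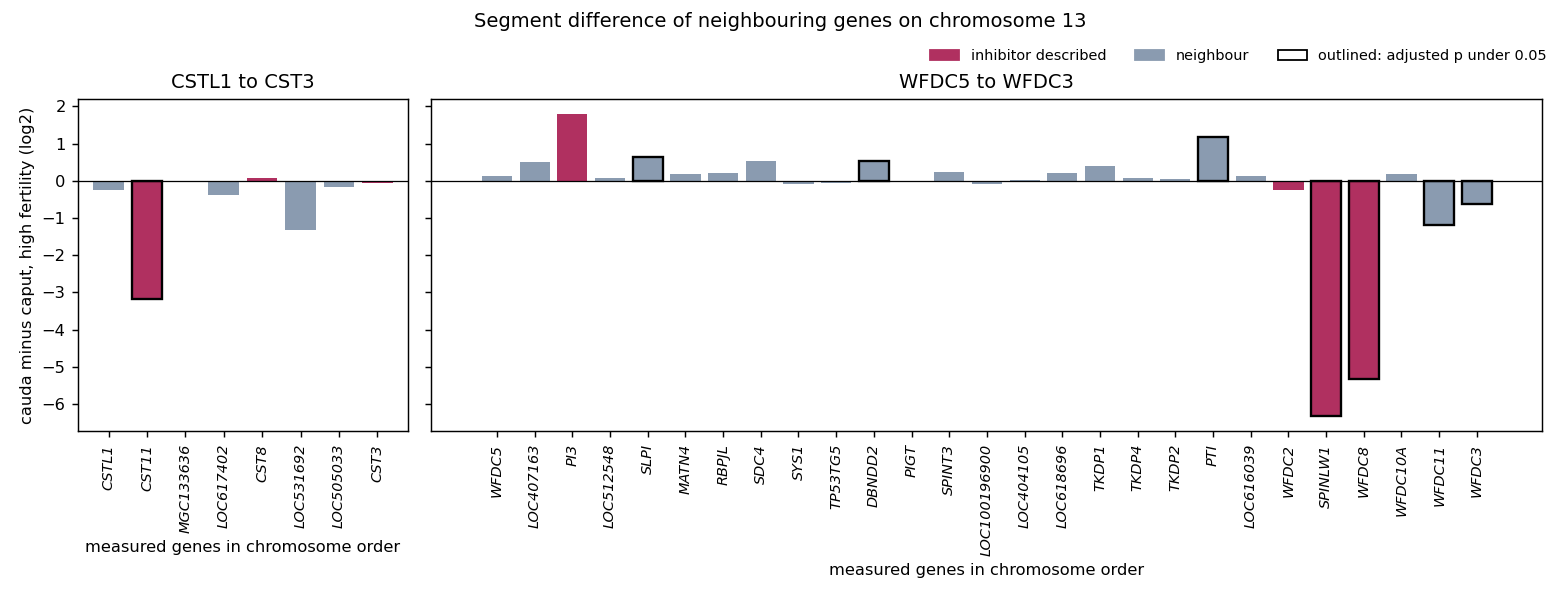
Cauda minus caput difference in high fertility (log2, vertical axis) for the measured genes of the cystatin cluster and of the WFDC region on chromosome 13, in chromosome order. Red bars are the inhibitors described, grey bars their neighbours, and outlined bars passed the threshold; SPINLW1 (-6.32) and WFDC8 (-5.32) stand beside WFDC2 (-0.25) and WFDC10A (0.17).

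Other genes of the same families were counted in the averaged comparisons, where 17.2% of all probe sets were higher and 15.1% lower in cauda than in caput. Of 18 further cystatin genes 8 were measured, and 12.5% of them passed from caput to cauda, beside 32.2% of all probe sets. CST6, an inhibitor of legumain and cathepsins, was 0.61 higher in corpus than in caput (limma adjusted p = 0.00185) and 0.74 lower in cauda than in corpus. HRG was 0.30 lower in cauda than in caput, with means of 4.28 in caput and 3.99 in cauda. Both lie in the lowest 25% of probe set means, which end at 5.86, so they may be background. A list of 27 further WFDC and Kunitz names had 16 measured. It holds KAL1 beside ANOS1, names of the same gene, and EPPIN, another name of the member SPINLW1. Of the 16 measured, 6 were higher and 2 lower in cauda than in caput, 50.0% of them. TFPI2, a Kunitz inhibitor, rose by 1.84 (limma adjusted p = 1.11e-07) and PTI by 1.40, while WFDC11 was 0.59 lower (0.99 without medium-low caput replicates 1 and 2), and WFDC5 was 0.85 higher in corpus than in caput. Of 15 further genes with Kazal-type domains 9 were measured: the activin-binding FST and FSTL3 were 1.54 and 1.06 higher in cauda than in caput and the proteoglycan AGRN 0.75 lower. The serpins, another class of inhibitors, had 17 of 21 measured, 3 higher and 2 lower in cauda than in caput, 29.4% of them. SERPINF2, the plasmin inhibitor, fell by 3.24 (limma adjusted p = 1.23e-08) and SERPINF1 by 1.12, and SERPINB8 rose by 1.07 and SERPINB1 by 0.44. SERPINF1 read 9.65 and 9.90 on medium-low caput replicates 1 and 2, above the 6.88 to 7.96 of the remaining caput arrays, and without them its difference was -0.22 (limma adjusted p = 0.592). It also lost the call without medium-low cauda replicate 3 (limma adjusted p = 0.0811). SERPINB1 gave 0.20 without those caput arrays (limma adjusted p = 0.126).

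Possible targets of the inhibitors were also counted. A list of cysteine proteases of the kind that cystatins block had 14 names, including older names of the same genes, and 12 were measured. Of these, 1 was higher and 4 lower in corpus than in caput (41.7%, beside 33.2% of all probe sets). From caput to cauda 1 was higher and 3 lower (33.3%). Their median differences were -0.25 and -0.15, beside 0.06 and 0.03 over all probe sets. Cathepsin H (CTSH) was 1.53 lower in corpus, and 2.28 lower without medium-low caput replicates 1 and 2, which also brought its cauda to caput difference past the threshold (-1.25, limma adjusted p = 0.0107). CTSC and the legumain gene LGMN were each 0.83 lower in corpus, and cathepsin K (CTSK) was 1.27 higher in cauda than in caput (limma adjusted p = 9.37e-09). Of 28 serine proteases 24 were measured, 9 higher and 4 lower in cauda than in caput, 54.2% of them beside 32.2% of all probe sets. PRSS21, the testisin protease of sperm, was 3.67 higher in cauda (limma adjusted p = 1.54e-09), TMPRSS2 2.81 and PRSS23 2.05 higher, and the urokinase gene PLAU was 2.02 higher in corpus than in caput and 0.97 lower in cauda than in caput. Members of these lists passed in no fertility comparison.

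Of the proteins that bind EPPIN on human sperm, 2 of 4 were measured. Lactotransferrin (LTF), an iron-binding protein of secretions, was 2.97 lower in cauda than in caput (limma adjusted p = 0.0011), and read 8.64 and 8.07 on medium-low caput replicates 1 and 2, below the 12.02 to 12.32 of the remaining 4, so that the difference without these arrays was -4.23 (limma adjusted p = 1.46e-05). Clusterin (CLU), a secreted chaperone, was 1.17 lower in cauda than in caput (limma adjusted p = 0.000144) and 1.35 lower than in corpus, and its lowest array was medium-low cauda replicate 3 at 11.41.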

How the data were processed

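The values are log2 signals of a bovine gene array, deposited as a table of 26773 probe sets by 18 arrays; per the submitters' processing notes the authors made them with RMA, which corrects background, equalises the distributions and summarises the probes. The notes also list Affymetrix Expression Console and Partek 6.5. Per the labels' protocols, 200 ng of total RNA per sample was labelled. No probe set was removed. All 18 arrays entered a model of 6 group means in limma 3.58.1 (R 4.3.3, with empirical Bayes moderation), with Benjamini-Hochberg adjustment over all probe sets and a threshold of 0.05. The number of arrays limits the precision, and p-values measure the spread between arrays. The 18 arrays come from 6 bulls and so share bulls, which the model of group means does not pair.

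Alternatives were normalization on top, a filter on dim probe sets, another prior, array weights, a replicate block (statmod 1.5.0), own arrays only, and leaving out arrays. Leaving out medium-low caput replicates 1 and 2 was set with earlier results of these arrays known, in which they stood apart. For the lists of other genes, leaving out the arrays that stand apart was chosen after seeing the data. Deviations of same-numbered arrays correlated at 0.0706 to 0.55 and 17 of 18 pairs exceeded 0.1, the exception being medium-low corpus with caput number 3. The numbers were therefore taken as pairing for all comparisons except corpus with caput averaged and in medium-low fertility. The scripts were tested on simulated data.

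Named genes are the 8 members, the 3 genes most correlated with each, up to 4 passing genes per family list, and the chromosome 13 neighbours, chosen after their values were seen. The members and lists were chosen with earlier results of these data known. Gene names come from the platform annotation and the RefSeq table of ARS-UCD2.0, used for names and gene order only. No sequence was used here.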

Additional observations from a re-analysis of the deposited data

Results flagged for a closer look

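Among the 24 sets of 6 arrays that share a gene and a segment, 2 arrays lay so far from the rest that the gap to the nearest array exceeded Dixon's 95% critical share of the whole range. That share was 0.776 for SPINK2B and 0.679 for CST3. Chance gives such a gap in about 1 set in 20. SPINK2B read 10.12 on medium-low cauda replicate 3, with the other 5 cauda arrays at 7.60 to 8.16. On that array the cauda genes GPR50 and NRK were at 8.32 and 8.49, below the other cauda arrays, while S100G and KCNIP3 were the highest of the segment, and the part of this in the SPINK2B value was not tested. CST3 read 11.43 on medium-low corpus replicate 2, with the other 5 corpus arrays at 10.85 to 11.04. The list of germ cell and sperm genes averaged 8.83 on that array and 6.60 to 7.11 on the other 5. It averaged 9.16 and 9.07 on medium-low caput replicates 2 and 3, where CST3 was at 10.77 and 11.24. The part of this list in the CST3 value was not tested.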

How the results depend on the processing

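Of 27 member differences past the threshold, 17 never lost the call or turned in any setting tried, and the other 10 did in some of 730 checks, 50 losing the call and 2 turning (WFDC8 and WFDC2 from caput to corpus inside medium-low fertility, both without medium-low caput replicates 1 and 2). With array weights 5 members passed from caput to corpus on average, 3 inside high fertility, 4 from corpus to cauda inside medium-low fertility, 6 between the fertility groups in caput and 3 in the interaction. With the replicate block, corpus to cauda gave 5 on average and 4 inside medium-low fertility, and caput to corpus gave 2 inside high fertility; where the numbers were not taken as pairing, the block left caput to corpus at 3 on average (PI3 limma adjusted p = 1.24e-06) and brought PI3 to 3.83e-05 inside medium-low fertility, and it changed no call other than these and those given with the results. Without medium-low caput replicates 1 and 2, caput to corpus gave 2 inside high fertility and corpus to cauda gave 4 inside medium-low fertility. These comparisons hold neither array. With the arrays of the compared groups alone, caput to corpus gave 3 inside high and 0 inside medium-low fertility and caput to cauda 1 inside medium-low fertility. The unadjusted rule with a 2-fold difference gave 4 between the fertility groups in caput. Counts over all probe sets are not given for the segment comparisons in these settings. The member counts alone therefore do not show whether the members moved with the whole table. The cause of these shifts was not tested.

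Leaving out 1 array at a time, the number of members past the threshold ranged from 3 to 5 (caput to corpus), 4 to 7 (caput to cauda) and 3 to 4 (corpus to cauda) on average, from 0 to 3, 3 to 4 and 3 to 3 inside high fertility and from 0 to 5, 2 to 5 and 2 to 4 inside medium-low fertility. Over all probe sets, 7274 to 8961, 7700 to 8966 and 5584 to 7420 of 26773 passed on average, in the same order. Inside high fertility these counts were 3281 to 6334, 4592 to 6986 and 2825 to 4754. Inside medium-low fertility they were 3074 to 5614, 3891 to 6399 and 1729 to 3511. Between the fertility groups the number of members ranged from 0 to 5 in caput and stayed at 0 in corpus and cauda, and in the interaction from 0 to 5. Over all probe sets these ranges were 2 to 4702, 0 to 7, 1 to 5 and 1 to 2359. Medium-low caput replicate 3 gave the upper ends of 7, of 5 and of 3 when left out.

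These differences turned in direction under some setting. Without medium-low caput replicates 1 and 2, corpus minus caput became -0.16 (CST3), -0.20 (WFDC8) and -0.28 (WFDC2) on average and -0.080 (CST3), -0.21 (WFDC8), -0.23 (WFDC2) and 0.086 (CST8) inside medium-low fertility, cauda minus caput -0.021 (CST3) and -0.11 (WFDC2), and the fertility difference in caput 0.11 (CST3) and 0.0072 (SPINK2B). Array weights gave 0.37 for SPINK2B (corpus minus caput) and 0.54 for WFDC8 (cauda minus caput) inside medium-low fertility. Quantile normalization gave 0.011 for SPINK2B there and 0.032 for CST3 (cauda minus caput, high fertility), and the CST8 fertility difference in corpus was -0.0017, -0.039 and -0.044 with array medians subtracted, quantile and cyclic loess normalization. The dimmer PI3 probe set gave -0.13 for fertility in cauda. Leaving out 1 array, ranges that crossed 0 were -0.038 to 0.19 (CST3, corpus minus caput on average), and inside high fertility -0.036 to 0.14 (CST8) and -0.12 to 0.027 (CST3) for cauda minus caput and -0.098 to 0.20 (WFDC2) and -1.54 to 0.0071 (PI3) for cauda minus corpus. Inside medium-low fertility they were -0.12 to 0.11 (CST8) and -0.66 to 0.81 (SPINK2B) for corpus minus caput and -1.95 to 0.97 (WFDC8) for cauda minus caput. For fertility they were -0.052 to 0.079 (CST8), -0.25 to 0.043 (WFDC2) and -0.43 to 0.032 (SPINK2B) in corpus and -0.10 to 0.094 (CST8) and -0.31 to 0.94 (SPINK2B) in cauda.

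Among the named genes that are no members, which were checked after seeing the data, 51 of 54 averaged differences past the threshold stayed past it without medium-low caput replicates 1 and 2, and 52 of 54 without medium-low cauda replicate 3. Without those caput arrays corpus minus caput turned to -0.14 (WFDC11) and -0.066 (SERPINB8).

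Over the whole table the fertility calls in caput, 57, were 25 with quantile and 35 with cyclic loess normalization, 164 without dim probe sets, 94 with a trended and robust prior, 4976 with array weights, 3 without medium-low caput replicates 1 and 2, 2 with the own arrays alone, and 2 to 4702 leaving out 1 array. The single interaction call became 1738 with array weights and up to 2359 leaving out 1 array. Having 3 arrays a group and no detection calls limits what low signals such as that of CST8 can show.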
